A study of Danio rerio with 36 samples.

Results

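The period genes per1a, per1b, per2 and per3 and the cryptochrome genes cry1aa, cry1ab, cry1ba and cry1bb encode the repressor arm of the zebrafish circadian clock. These 8 genes were taken by symbol from a table of 30490 genes and were followed over 6 stages in wild-type and kctd15 mutant embryos and larvae. Kctd15 is a BTB domain protein known in zebrafish as an inhibitor of neural crest formation. In the vertebrate clock, heterodimers of CLOCK and BMAL proteins switch on period and cryptochrome genes, and the PER and CRY proteins then enter the nucleus and block their own activators. The delay in this loop makes the RNA of most of these genes rise and fall once a day. Zebrafish clocks run in nearly every tissue and are set directly by light, and per2 and cry1aa are known to be switched on by light in zebrafish cells. The cry1ba and cry1bb proteins, known from older literature as Cry2a and Cry2b, repress CLOCK and BMAL activity in cell assays, as do cry1aa and cry1ab. A current zebrafish reference table of assembly GRCz12tu lists the 4 cryptochrome genes as cry1a, cry1b, cry3a and cry3b.

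RNA of whole zebrafish was sequenced at 1 somite, 25 hpf (hours after fertilisation), 2 day, 5 day, 9 day and 14 day, in wild type and in kctd15 mutants, with 3 libraries in each of the 12 groups and 36 libraries in all. Per the labels, larvae were fed, polyA RNA went into stranded libraries, and the 3 libraries of a group were biological replicates. The labels name no allele, do not say whether kctd15a, kctd15b or both carry the lesion, and give no strain for either genotype, no number of animals in a library and no sex. They also give neither the clock hour of collection nor the light cycle. Genotype and collection hour therefore cannot be told apart in any comparison of genotypes below. Stage and collection hour likewise cannot be told apart in any comparison of stages. The p-values measure the spread between these libraries. In whole animals, fewer cells of a type and less RNA per cell cannot be told apart.

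Libraries held 5512118 to 12523019 estimated counts. Levels are counts-per-million values (CPM) scaled with TMM factors over all 36 libraries, and they compare 1 gene between libraries, not genes with each other. kctd15a RNA was higher in every mutant library than in every wild-type library of the same stage, for example 67.4 to 81.7 CPM against 18.9 to 27.0 CPM at 25 hpf. kctd15b RNA overlapped at 1 somite and was higher in every mutant library at each later stage, for example 17.1 to 23.4 CPM against 7.90 to 11.5 CPM at 2 day. A lesion need not lower RNA, so neither gene's level checks the lesion itself. The presomitic mesoderm genes tbx6, msgn1 and tbx16 followed the 1 somite label: their summed CPM was 722 to 839 at 1 somite and at most 15.8 later. Fold changes come from edgeR's quasi-likelihood test within each comparison, with p adjusted over all genes tested there, and a gene is called below where its adjusted p was under 0.05. The error printed with ± is the standard error of a log2 fold change or, for CPM, the SD (n = 3).

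**Figure D1:**
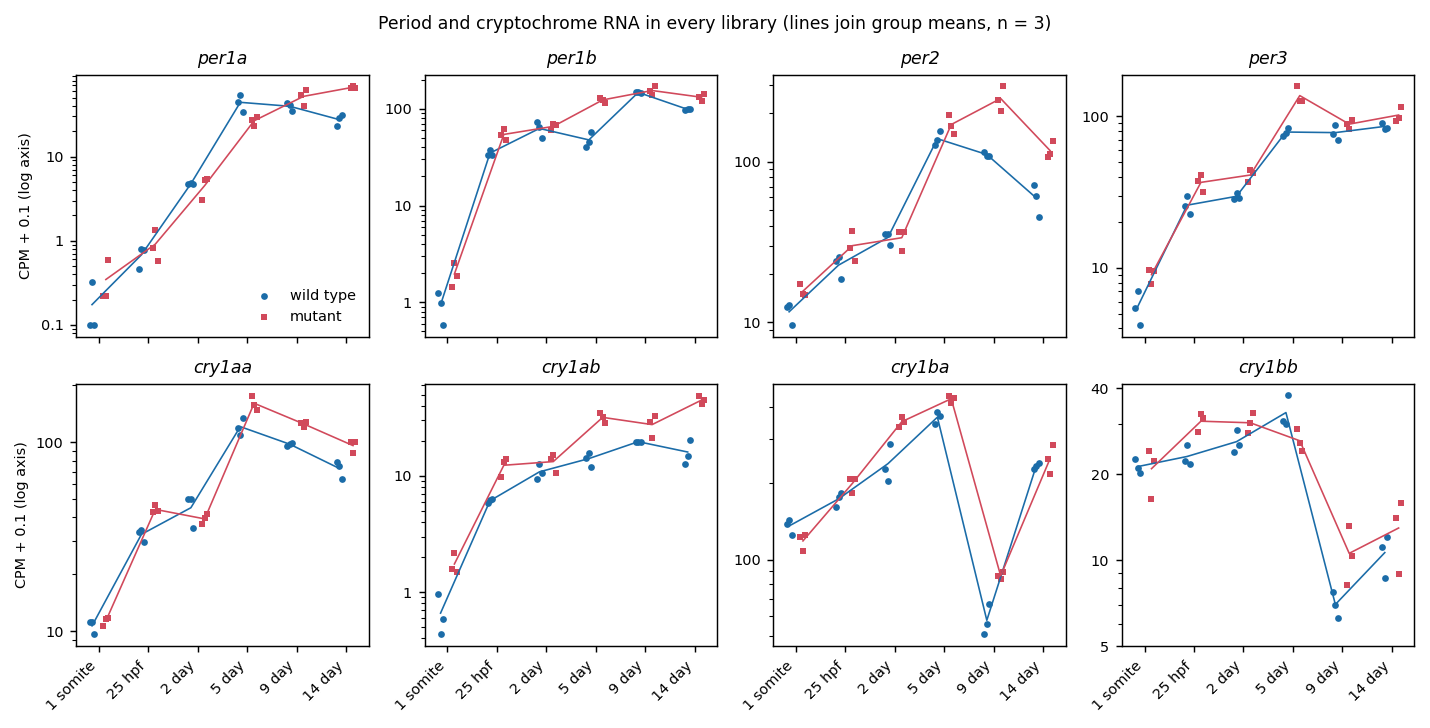
RNA of the 8 period and cryptochrome genes in every library, as CPM + 0.1 on a log axis, by stage; blue circles are wild-type libraries, red squares mutant libraries, and lines join the means of 3 libraries. Most genes climbed from 1 somite to 5 day, and cry1ba and cry1bb dropped at 9 day in both genotypes.

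In wild type, the period genes started low and climbed steeply. per1a, a period gene duplicated in fish together with per1b, was barely counted at first, with 0, 0.223 and 0 CPM at 1 somite and 0.364, 0.709 and 0.671 CPM at 25 hpf. It reached 4.67, 4.70 and 4.59 CPM at 2 day and 44.5, 53.8 and 33.8 CPM at 5 day, log2 steps of 3.01 ± 0.33 and 3.23 ± 0.20. per1b rose earlier, from 1.15, 0.891 and 0.483 CPM at 1 somite to 33.6, 37.6 and 33.1 CPM at 25 hpf, a log2 step of 5.41 ± 0.21. No library of the later stage overlapped the earlier one in any of these 3 steps. The highest per1b level of wild type was at 9 day (148, 150 and 145 CPM), above 14 day (96.5 to 99.6 CPM), 2 day (49.9 to 73.0 CPM), 5 day (40.1 to 56.9 CPM) and 25 hpf. Only the 2 day and 5 day values overlapped among neighbours in that order.

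per2, the light-responsive period gene, and per3 followed a smoother course in wild type. per2 was at 12.4, 12.7 and 9.55 CPM at 1 somite, 24.0, 25.4 and 18.5 CPM at 25 hpf and 35.4, 35.5 and 30.2 CPM at 2 day. It then rose by 2.03 ± 0.12 on the log2 scale to 127, 135 and 154 CPM at 5 day. After this peak it was lower at 9 day (108 to 115 CPM, log2 step -0.29 ± 0.11) and lower again at 14 day (45.2 to 71.5 CPM, -0.90 ± 0.15). The 6 stages of per2 did not overlap in wild type. per3 stood at 4.11 to 6.91 CPM at 1 somite, 22.5 to 29.6 CPM at 25 hpf and 28.6 to 31.4 CPM at 2 day. From 5 day on, per3 stayed between 69.8 and 91.1 CPM, and the 5, 9 and 14 day libraries overlapped.

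The light-responsive cryptochrome cry1aa had nearly the course of per2. Its wild-type means were 10.6 ± 0.905 CPM at 1 somite, 32.5 ± 2.45 at 25 hpf, 44.9 ± 8.71 at 2 day, 121 ± 12.5 at 5 day, 97.5 ± 2.02 at 9 day and 72.7 ± 7.66 at 14 day, and no neighbours in that order overlapped. cry1ab, its fish duplicate, was near absent at 1 somite (0.334 to 0.864 CPM) and rose by 3.49 ± 0.32 on the log2 scale to 5.70 to 6.23 CPM at 25 hpf. It then stayed between 9.22 and 20.5 CPM from 2 day to 14 day. Across the 12 group means, log2 CPM of per3 and cry1aa had a Pearson correlation of 0.975, and that of per1b and cry1ab 0.965. These points share their libraries and the stage order, and the values are descriptions.

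cry1ba and cry1bb differed from the other 6 genes in their stage course. Wild-type cry1ba was already at 138, 144 and 125 CPM at 1 somite and climbed to 343, 384 and 369 CPM at 5 day. At 9 day it stood at 50.6, 55.3 and 66.5 CPM, and at 14 day again at 227, 235 and 241 CPM. The fall was 6.35-fold (log2 step -2.63 ± 0.13, edgeR adjusted p = 1.77e-06) and the return 4.08-fold (2.04 ± 0.13, adjusted p = 7.54e-06), with no overlap in either step. cry1bb, its duplicate, was at 20.2 to 37.8 CPM from 1 somite to 5 day and at 7.67, 6.85 and 6.19 CPM at 9 day, a fall of 4.76-fold (-2.21 ± 0.15, adjusted p = 5.57e-06). It came back only to 11.1, 8.58 and 11.99 CPM at 14 day (0.62 ± 0.18, adjusted p = 0.0404). The cry1bb return no longer passed after leaving out any 1 of the 3 wild-type 9 day libraries or of wild-type 14 day replicates 1 and 3 (adjusted p 0.0528 to 0.146). In mutants cry1ba also fell and returned, from 443, 417 and 435 CPM at 5 day to 85.8, 84.0 and 88.8 CPM at 9 day and 250.0, 219 and 283 CPM at 14 day.

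Over the 5 wild-type steps, 6 of the 7 members tested were called from 1 somite to 25 hpf, all higher. Of all genes 76.9% were called at that step, and each share here counts genes called in either direction. From 25 hpf to 2 day 6 of 8 were called, all higher (59.7% of all genes), and from 2 day to 5 day 5 rose and 1 fell (61%). From 5 day to 9 day 2 rose and 3 fell (49.3%), and from 9 day to 14 day 2 rose and 4 fell (16.8%). The share of members called lay near the share of all genes except at the last step. That last count dropped to 3 or 4 when any 1 library was left out. Depending on the library, per1a, cry1aa or cry1bb no longer passed (adjusted p 0.0528 to 0.146). per1b from 2 day to 5 day (-0.40 ± 0.16, adjusted p = 0.0465) and per2 from 5 day to 9 day (adjusted p = 0.0438) were also lost without single libraries, with adjusted p of 0.106 to 0.173 for per1b and 0.0612 to 0.129 for per2.

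**Figure D2:**
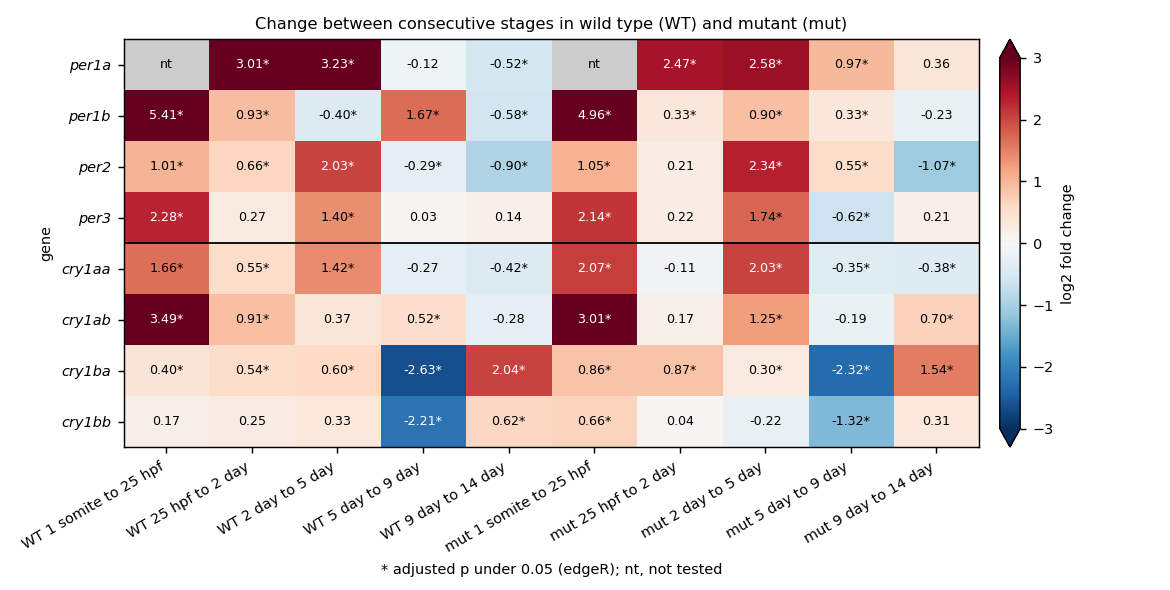
Log2 fold change of each of the 8 genes between consecutive stages, in wild type (left 5 columns) and mutant (right 5 columns); red is higher and blue lower at the later stage, an asterisk marks an edgeR adjusted p under 0.05, and grey squares were not tested. The darkest blue squares are cry1ba from 5 day to 9 day, -2.63 in wild type and -2.32 in mutants.

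In the mutants, 7 of 7 members tested rose from 1 somite to 25 hpf and 3 of 8 from 25 hpf to 2 day. Of all genes 76% and 62.6% were called at these steps. Each share here counts genes called in either direction. From 2 day to 5 day 7 of 8 rose (56%), from 5 day to 9 day 3 rose and 4 fell (57.5%), and from 9 day to 14 day 2 rose and 2 fell (19.6%). The steps that looked least alike in both genotypes were those of per1b around 5 day. per1b fell from 2 day to 5 day in wild type (-0.40 ± 0.16), where the libraries overlapped, and rose in mutants (0.90 ± 0.10). The wild-type fall was not called with RLE size factors, library totals, no filter on low counts or DESeq2 (adjusted p 0.0513 to 0.112). From 5 day to 9 day per1b rose by 1.67 ± 0.13 in wild type and by 0.33 ± 0.10 in mutants. per1a rose from 5 day to 9 day in mutants (0.97 ± 0.16) and not detectably in wild type (-0.12 ± 0.16, adjusted p = 0.563). cry1ab rose from 9 day to 14 day in mutants (0.703 ± 0.155, edgeR adjusted p = 0.00967), a call lost with library totals (adjusted p = 0.053). In wild type that cry1ab step was not called (-0.28 ± 0.17, adjusted p = 0.301). cry1bb fell by 1.32 ± 0.17 from 5 day to 9 day in mutants and by 2.21 ± 0.15 in wild type. Each step difference between genotypes was not tested on its own, and the genotype by stage test is given below. Steps and genotype comparisons share libraries, so they are not separate evidence.

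Mutants and wild type were then compared at each stage. Of 46 pairs of a member and a stage that passed the filter on low counts, the mean CPM of mutants was above that of wild type in 39 and below in 7. The fitted log2 fold change was above 0 in 41 and below in 5. These splits differed by per1a and per2 at 2 day, with fitted values near 0 (0.00 and 0.06) and means slightly below wild type. Means used TMM factors over all 36 libraries, and fits used factors from the libraries compared. In the fit of all 36 libraries the values were -0.068 for per1a and -0.012 for per2. The mutant libraries lay entirely above the wild-type libraries in 28 pairs, entirely below in 3, and overlapped in 15. After adjustment 17 pairs were called higher and 1 lower. By stage, 12.2% to 16.1% of all genes lay entirely above wild type and 0.786% to 6.82% were called higher. The pairs repeat the same members over stages and are not separate units. per1a was not tested at 1 somite and 25 hpf, where its libraries held 0 to 8.19 estimated counts. The median log2 fold change of the members tested was between 0.22 at 2 day and 0.46 at 25 hpf, when the median of all genes tested was between -0.01 and 0.02 at every stage.

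By stage, the members' counts stood against the following shares of all genes. At 1 somite 1 of 7 was called higher (6.77% of all genes were, and 13.6% were called in either direction); 4 of 7 lay entirely above wild type (16.1% of genes) and 1 entirely below (15.6%). At 25 hpf 5 of 7 were called higher (6.82%, and 13.6% in either direction), and 6 lay entirely above (13.1%). At 2 day 2 of 8 were called higher (4.7%, and 6.86% in either direction), and the same 2 lay entirely above (12.5%). At 5 day 4 of 8 were called higher (6.17%) and 1 lower (7.84%), with 14% of genes called in all; 5 lay entirely above (16%) and 2 below (17%). At 9 day 2 of 8 were called higher (0.786%, and 1.91% in either direction), and 5 lay entirely above (12.2%). At 14 day 3 of 8 were called higher (2.31%, and 4.8% in either direction), and 6 lay entirely above (13.7%). The count at 1 somite became 0 with DESeq2 and with single libraries left out, and such fits lowered the counts at 2 day, 5 day and 9 day to 0, 3 and 1.

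**Figure D3:**
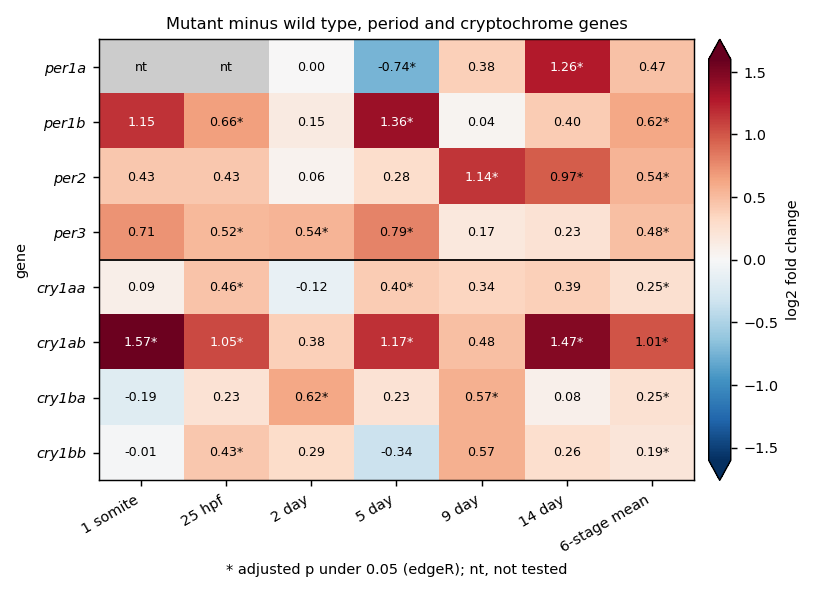
Log2 fold change of mutant over wild type for the 8 genes at each of the 6 stages and averaged over them; red is higher in mutants, blue lower, an asterisk marks an edgeR adjusted p under 0.05, and grey squares were not tested. Among the 6 stages, called squares are most numerous at 25 hpf and 5 day, with 5 at each, where 13.6% and 14% of all genes were called. The only called blue square is per1a at 5 day, -0.74.

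Among the period genes, per1b had its largest mutant difference at 5 day. Wild-type libraries held 40.1, 45.8 and 56.9 CPM and mutant libraries 130.2, 124 and 116 CPM. No mutant library came near the wild-type range. The log2 fold change was 1.36 ± 0.13 (edgeR adjusted p = 8.83e-05), a ratio of group means of 2.59. At 25 hpf per1b was at 33.6, 37.6 and 33.1 CPM in wild type and 53.8, 61.6 and 47.4 CPM in mutants (0.66 ± 0.10, adjusted p = 0.000198). Both calls held with any 1 library left out. per1b overlapped at 2 day (49.9 to 73.0 against 59.6 to 69.6 CPM) and 9 day (145 to 150 against 140.3 to 170.1 CPM). At 14 day all mutant libraries were above wild type (119.6 to 144 against 96.5 to 99.6 CPM), without passing (0.40 ± 0.12, adjusted p = 0.0772), and at 1 somite likewise (1.35 to 2.45 against 0.483 to 1.15 CPM, adjusted p = 0.0927).

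per2 was called at the 2 latest stages. At 9 day wild-type libraries held 115, 108 and 109 CPM and mutant libraries 241, 207 and 294 CPM, so that the mutants were spread more widely but all lay far above. The log2 fold change was 1.14 ± 0.13 (edgeR adjusted p = 0.00194), and only 0.786% of all genes were called higher at that stage. At 14 day wild type held 71.5, 61.4 and 45.2 CPM and mutants 107, 111 and 134 CPM, again without overlap (0.97 ± 0.17, adjusted p = 0.00973). Both calls held with any 1 library left out. At 2 day (30.2 to 35.5 against 27.7 to 36.6 CPM) and 5 day (127 to 154 against 148 to 195 CPM) the groups overlapped, and at 25 hpf they did so as well (18.5 to 25.4 against 24.0 to 37.0 CPM, adjusted p = 0.0611). At 1 somite the mutants lay entirely above wild type (14.6 to 17.2 against 9.55 to 12.7 CPM) without passing (0.43 ± 0.16, adjusted p = 0.107).

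per3 was called higher at 3 neighbouring stages. It went from 25.5, 29.6 and 22.5 CPM to 37.3, 40.8 and 31.7 CPM at 25 hpf (0.52 ± 0.12, edgeR adjusted p = 0.00593). At 2 day it went from 28.6, 31.4 and 28.9 CPM to 36.9, 43.9 and 42.0 CPM (0.54 ± 0.12, adjusted p = 0.0201), and at 5 day from 74.7, 78.2 and 83.6 CPM to 158, 127 and 127 CPM (0.79 ± 0.11, adjusted p = 0.00112). No mutant library overlapped wild type at these stages. The 25 hpf and 5 day calls held with any 1 library left out, whereas the call at 2 day did not survive leaving out wild-type replicate 1 or 2 or mutant replicate 2 or 3 (adjusted p 0.0646 to 0.0916). At 1 somite per3 also lay entirely above wild type in mutants (7.72 to 9.58 against 4.11 to 6.91 CPM, 0.71 ± 0.22) and narrowly missed (adjusted p = 0.0531), passing in 3 of 6 other settings. It was apart at 14 day too (93.3 to 116 against 82.2 to 91.1 CPM, adjusted p = 0.295), and overlapped at 9 day (69.8 to 88.1 against 82.1 to 95.2 CPM).

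per1a was the only member called in both directions. At 5 day wild type held 44.5, 53.8 and 33.8 CPM and mutants 27.4, 22.9 and 29.4 CPM, so every mutant library was below (-0.74 ± 0.17, edgeR adjusted p = 0.0145). At 14 day wild type held 23.2, 28.3 and 30.8 CPM and mutants 66.0, 68.0 and 65.7 CPM, a tight group at 2.43 times the wild-type mean (1.265 ± 0.14, adjusted p = 0.000674). The 14 day call held with any 1 library left out. The call at 5 day did not survive leaving out wild-type replicate 2 (-0.56, adjusted p = 0.0536) or mutant replicate 2 (-0.64, adjusted p = 0.0857). At 9 day the groups overlapped (34.7 to 42.7 against 39.6 to 61.8 CPM), as they did at 2 day.

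Among the cryptochromes, cry1ab was called at most stages. Wild-type libraries held 0.864, 0.334 and 0.483 CPM at 1 somite and mutants 1.47, 2.08 and 1.38 CPM, from 3.00 to 17.0 estimated counts a library. At 25 hpf 5.70, 6.12 and 6.23 CPM stood against 9.78, 13.2 and 13.8 CPM, at 5 day 14.3, 15.8 and 11.9 against 34.9, 32.1 and 28.4 CPM, and at 14 day 12.5, 14.9 and 20.5 against 48.8, 41.2 and 44.4 CPM. Mutants lay entirely above wild type at each of these 4 stages and at 9 day (19.6 CPM in each wild-type library against 20.9 to 32.5 CPM), and overlapped at 2 day (9.22 to 12.5 against 10.5 to 15.1 CPM). The log2 fold changes were 1.57 ± 0.44 at 1 somite (edgeR adjusted p = 0.0366), 1.05 ± 0.17 at 25 hpf (adjusted p = 0.000414), 1.17 ± 0.14 at 5 day (adjusted p = 0.000464) and 1.47 ± 0.18 at 14 day (adjusted p = 0.00139). The last 3 calls held with any 1 library left out. The 1 somite call did not hold without wild-type replicate 2 or 3 or any 1 of the mutant libraries (adjusted p 0.0727 to 0.132), nor with DESeq2 (adjusted p = 0.187). At 9 day cry1ab was not called (0.48 ± 0.15, adjusted p = 0.159).

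cry1aa differed less. At 25 hpf it went from 33.3, 34.4 and 29.7 CPM in wild type to 42.6, 46.5 and 43.1 CPM in mutants (0.46 ± 0.09, edgeR adjusted p = 0.00241), which held with any 1 library left out. At 5 day it went from 119, 109 and 134 CPM to 176, 158 and 148 CPM (0.40 ± 0.11, adjusted p = 0.0301). That call was lost without wild-type replicate 1 or 2 or mutant replicate 1 or 2, and with library totals in place of TMM factors (0.23, adjusted p = 0.155). The mutants lay above wild type without overlap at 9 day (121 to 127 against 95.3 to 99.1 CPM, adjusted p = 0.0703) and 14 day (87.5 to 101 against 64.1 to 78.8 CPM, adjusted p = 0.108) as well, and neither passed. At 1 somite and 2 day the groups overlapped.

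cry1ba was called at 2 day and 9 day. It went from 228, 204 and 285 CPM to 334, 367 and 351 CPM at 2 day (0.62 ± 0.14, edgeR adjusted p = 0.021) and from 50.6, 55.3 and 66.5 CPM to 85.8, 84.0 and 88.8 CPM at 9 day (0.57 ± 0.11, adjusted p = 0.0299). The groups were apart in both, but the call at 2 day did not survive leaving out wild-type replicate 1 or 2 or mutant replicate 2 or 3 (adjusted p 0.0626 to 0.107), and the 9 day call in 5 of 6 such fits (adjusted p 0.0672 to 0.108). At 5 day mutants also lay above wild type (417 to 443 against 343 to 384 CPM, adjusted p = 0.093). At 1 somite all mutant libraries were below wild type (108 to 125 against 125 to 144 CPM, adjusted p = 0.278).

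cry1bb was called only at 25 hpf, from 22.2, 25.2 and 21.7 CPM to 28.1, 32.4 and 31.4 CPM (0.43 ± 0.10, edgeR adjusted p = 0.00922). No libraries overlapped, and the call held with any 1 library left out but not with DESeq2 (adjusted p = 0.0542) or in a fit of all 36 libraries (adjusted p = 0.148). At 5 day mutants were below wild type (24.0 to 28.8 against 29.98 to 37.8 CPM, adjusted p = 0.103), and at 9 day above (8.07 to 13.1 against 6.19 to 7.67 CPM, adjusted p = 0.197).

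Averaged over the 6 stages in a fit of 24431 genes, 7 of 8 members were higher in mutants, when 9.58% of all genes were. cry1ab had the largest averaged log2 fold change, 1.01 ± 0.10 (edgeR adjusted p = 1.42e-09). per1b followed with 0.62 ± 0.08, per2 with 0.54 ± 0.07 and per3 with 0.48 ± 0.06, with adjusted p from 6.63e-08 to 3.34e-07. cry1aa (0.25 ± 0.05) and cry1ba (0.25 ± 0.04) passed with smaller differences, and cry1bb passed narrowly (0.19 ± 0.07, adjusted p = 0.049). The cry1bb result did not pass without the 25 hpf, 2 day, 9 day or 14 day libraries (adjusted p 0.0572 to 0.314). per1a, high at 14 day and low at 5 day in mutants, did not pass (0.47 ± 0.21, adjusted p = 0.112). Its average also takes in 1 somite and 25 hpf, where its counts were too low for a test of the stage alone.

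A test of whether the mutant difference varied between stages was passed by all 8 members, when 25.5% of all genes passed it. The edgeR adjusted p was 1.08e-05 for per1b and 1.42e-05 for per1a, 0.00122 for per2, 0.0021 for cry1ba, 0.00266 for cry1ab and 0.0128 for cry1aa. It was 0.0401 for cry1bb and 0.0439 for per3. Leaving out the libraries of 1 stage ended the call of cry1aa (without 2 day, adjusted p = 0.409), of per3 (without 5 day or 9 day, adjusted p = 0.163 and 0.109) and of cry1bb (without 1 somite, 25 hpf, 5 day or 9 day, adjusted p 0.0529 to 0.381). Library totals in place of TMM factors ended the calls of per3 (adjusted p = 0.0903) and cry1aa (0.0822), and fitting with no filter on low counts ended that of cry1bb (0.0617). per1b differed most at 5 day, per2 at 9 day and per1a at 14 day.

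Other clock, light-induced and photolyase family genes were followed as 54 genes in 6 lists, with cry5 and tefa in 2 lists each. At 1 somite 4 were higher and 4 lower in mutants of 47 tested, at 25 hpf 7 and 2 of 48, and at 2 day 2 and 1 of 52. At 5 day 9 were higher and 12 lower of 52, at 9 day 5 and 0 of 52, and at 14 day 7 and 1 of 51. The share called was above that of all genes at 5 of 6 stages: 17% against 13.6% at 1 somite, 18.8% against 13.6% at 25 hpf, 40.4% against 14% at 5 day, 9.62% against 1.91% at 9 day and 15.7% against 4.8% at 14 day. At 2 day it was below, 5.77% against 6.86%. At 9 day none of the activators, Rev-erb and ROR genes, PAR-bZIP and nfil3 genes or partners of PER and CRY was called. All calls there lay in the light-induced list (4 of 7) and the cryptochrome and photolyase list (2 of 5), which share cry5. The median log2 fold change of all listed genes tested was between -0.05 at 2 day and 0.18 at 14 day.

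The activators clocka, clockb, npas2, arntl1a, arntl1b and arntl2 encode the CLOCK and BMAL side of the loop and its relatives. At 5 day 3 of 6 were higher in mutants (6.17% of all genes were) and none was lower. arntl1b went from 8.60, 8.32 and 6.15 CPM to 13.7, 16.9 and 11.4 CPM (0.84 ± 0.19, edgeR adjusted p = 0.0153), with no overlap. arntl1a, the other arntl1 duplicate, was higher by 0.76 ± 0.16 on the log2 scale (adjusted p = 0.00948), and npas2, a relative of clock, by 0.71 ± 0.17 (adjusted p = 0.0203). At 14 day arntl1b alone was called (0.81 ± 0.20, adjusted p = 0.0488), and at 1 somite clockb alone (0.46 ± 0.13, adjusted p = 0.0443). Of all genes 4.8% were called at 14 day and 13.6% at 1 somite. edgeR called no activator at 25 hpf, 2 day or 9 day, where 2, 1 and 3 of them had an unadjusted p under 0.05. Of all genes 13.6%, 6.86% and 1.91% were called at these stages. Many genes had a low unadjusted p there. In edgeR, the p of 0.0419 of cry1bb at 2 day ranked at 23.2% of all genes tested. The p of 0.0354 of per1a at 9 day ranked at 13%. clocka was called at no stage, and its largest difference was at 9 day (-1.02 ± 0.23, adjusted p = 0.0596). At the other stages its log2 fold change was between -0.46 and 0.35, that of clockb between -0.33 and 0.38, that of arntl1a between -0.24 and 0.51 and that of arntl1b between -0.05 and 0.61.

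A list of 7 genes besides the members that light switches on in zebrafish cells moved with the stage. It holds the photolyase gene cry5, the transcription factor gene tefa, lonrf1 and lonrf1l, and the DNA repair genes ddb2, xpc and neil1. At 25 hpf 4 of 7 were higher in mutants (6.82% of all genes were) and none lower, and the 7 had a median log2 fold change of 0.53. At 5 day 5 of 7 were lower (7.84% of all genes were) and none higher (median -0.48). At 9 day 4 of 7 were higher (0.786% of all genes) and none lower (median 0.50). At 2 day edgeR called none (6.86% of all genes), with 3 at an unadjusted p under 0.05. At 1 somite and 14 day 1 was called (13.6% and 4.8% of all genes). cry5 itself went from 6.30, 7.71 and 10.2 CPM to 12.3, 16.0 and 13.9 CPM at 25 hpf (0.82 ± 0.17, edgeR adjusted p = 0.00383). At 5 day it went from 50.1, 54.8 and 49.9 CPM to 36.2, 36.7 and 38.7 CPM (-0.48 ± 0.10, adjusted p = 0.00952), and at 9 day from 24.0, 20.2 and 27.5 CPM to 41.8, 34.6 and 44.0 CPM (0.73 ± 0.14, adjusted p = 0.0279). The groups were apart at each of these 3 stages. Of the light-responsive members at 25 hpf, cry1aa was called higher (0.46 ± 0.09, edgeR adjusted p = 0.00241) and per2 was not called (0.43 ± 0.15, adjusted p = 0.0611). At 9 day per2 was called higher (1.14 ± 0.13, adjusted p = 0.00194). cry1aa lay entirely above wild type at 9 day without being called (0.34 ± 0.08, adjusted p = 0.0703). At 5 day per2 was not called and its groups overlapped (0.28 ± 0.12, adjusted p = 0.136). cry1aa was called higher there (0.40 ± 0.11), a call lost without some single libraries. Whether collection hour or light exposure moved with genotype was not tested.

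**Figure D4:**
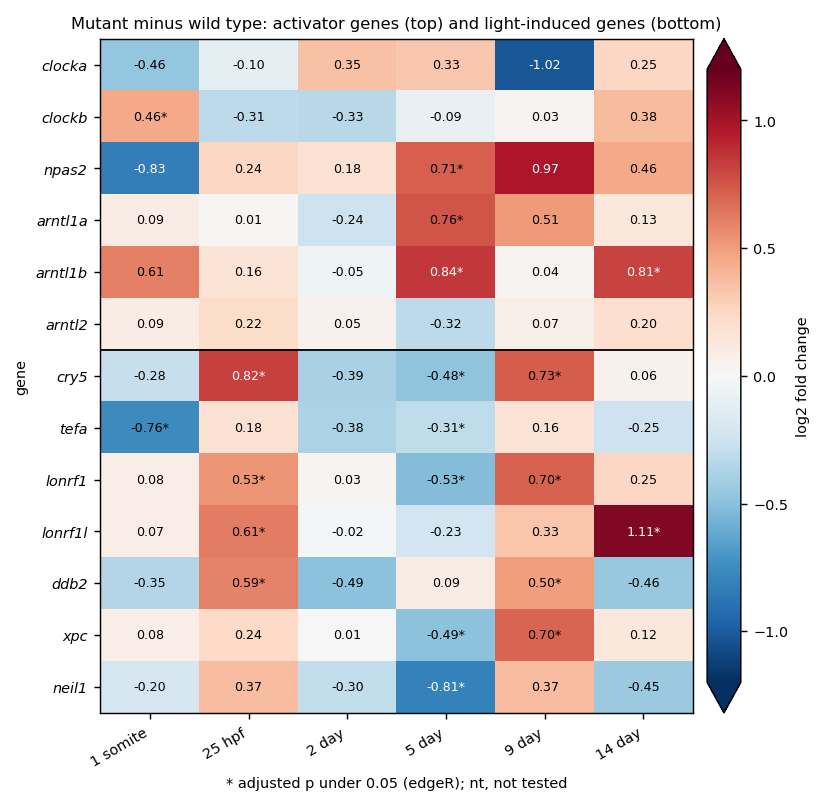
Log2 fold change of mutant over wild type for the 6 activator genes (above the line) and 7 light-induced genes (below it) at each stage; red is higher and blue lower in mutants, and an asterisk marks an edgeR adjusted p under 0.05. The light-induced genes with an asterisk are red at 25 hpf, 9 day and 14 day and blue at 1 somite and 5 day.

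In the Rev-erb and ROR loop, which sets the level of the activators, 2 of 10 genes tested rose and 2 fell at 5 day. Of all genes 6.17% were called higher and 7.84% lower there. nr1d4b, a Rev-erb gene, went from 12.6, 12.5 and 10.3 CPM to 1.57, 2.33 and 0.780 CPM (-2.97 ± 0.29, edgeR adjusted p = 0.000112). rorca, a ROR gene, was higher by 1.16 ± 0.17 (adjusted p = 0.00144). nr1d2a was higher at 2 day (1.27 ± 0.16, adjusted p = 0.000999), and nr1d2b was lower at 1 somite (-0.59 ± 0.14, adjusted p = 0.0145). nr1d1 was called at none of the 5 stages tested and was counted in no mutant library at 1 somite, where wild-type libraries held 1.00 to 5.00 estimated counts.

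Among the PAR-bZIP output genes and their nfil3 antagonists, nfil3-5 was higher in mutants at 1 somite (0.83 ± 0.14, edgeR adjusted p = 0.00283), 25 hpf (0.67 ± 0.09, adjusted p = 4.94e-05) and 5 day (0.76 ± 0.12, adjusted p = 0.00258), and nfil3-6 at 2 day (0.85 ± 0.17, adjusted p = 0.0126). At 14 day 2 of 10 rose (2.31% of all genes did): tefb by 1.09 ± 0.13 (adjusted p = 0.00148) and hlfa by 1.11 ± 0.14 (adjusted p = 0.0015). At 5 day dbpb fell by 0.89 ± 0.15 on the log2 scale (adjusted p = 0.0038), and tefa was the 1 gene of the list called lower at 1 somite (-0.76 ± 0.10, adjusted p = 0.000405). Of 16 kinases, ligases and other partners of PER and CRY, 3 were called at 5 day, near the share of all genes (14%). Among these 3 was bhlhe40, whose mammalian counterpart represses CLOCK and BMAL activity (0.70 ± 0.12, adjusted p = 0.00386). usp2a, a deubiquitinase gene, was higher at 14 day (0.60 ± 0.13, adjusted p = 0.0268).

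In the cryptochrome and photolyase family outside the members, the photolyase gene listed as zgc:66475, a synonym of cpdp, was lower in mutants at 5 of 6 stages. Its log2 fold change was between -0.74 ± 0.12 at 1 somite (edgeR adjusted p = 0.00219) and -0.47 ± 0.14 at 5 day (adjusted p = 0.042). cry-dash was higher at 9 day (0.57 ± 0.10, adjusted p = 0.0209), but at 5 day it lay entirely below wild type (58.2 to 59.3 against 70.2 to 84.9 CPM). At 5 day 3 of the 5 genes of this list, cry-dash among them, were called lower and none higher (7.84% of all genes were lower).

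Tissue markers moved with genotype at some of these stages. At 25 hpf, where 5 members were called, the summed CPM of 3 embryonic red cell genes (hbae3, hbbe3 and alas2) was 438 to 601 in wild type and 1816 to 2332 in mutants, and that of 3 fast muscle genes 3009 to 3569 and 5192 to 5625. All 6 of these genes were called higher (6.82% of all genes were). The presomitic mesoderm genes summed to 11.9 to 15.8 CPM in wild type and 6.16 to 8.60 CPM in mutants at that stage. At 5 day the red cell sums were 311 to 513 and 641 to 716 CPM, with hbbe3 at 0 in every library, and the fast muscle sums 18037 to 20157 and 22767 to 24024 CPM. At 2 day the red cell sums were 204 to 958 and 1893 to 2478 CPM. At 14 day, where 3 members were called, they were 141 to 237 and 239 to 418 CPM, and 1 of the 2 genes tested was called higher (2.31% of all genes). At 9 day the red cell and fast muscle sums overlapped between genotypes, and no gene of either list was called. Sums of 3 genes listed for liver were apart at 25 hpf (1932 to 2949 CPM in wild type, 2970 to 3317 in mutants) and 2 day (4069 to 5210 and 2841 to 3982 CPM). At 25 hpf 1 of the 2 genes tested was called higher, and at 2 day 1 of 3 lower. These genes already summed to 1112 to 1289 CPM in wild type at 1 somite, so their early sums are not read as an amount of liver. Rod and cone sums at 9 day were 628 to 1060 CPM in wild type and 1184 to 1235 CPM in mutants. None of the 3 rod and cone genes was called there by edgeR (1.91% of all genes were), and all 3 had an unadjusted p under 0.05. Taken singly, 1 of the 3 had groups that did not overlap. Pineal organ sums at 9 day overlapped (6.83 to 12.6 and 9.79 to 14.5 CPM). The part of tissue makeup in the members' differences was not tested.

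The members differed in how far replicates of 1 group spread. The pooled replicate standard deviation of log2 CPM was 0.23 for per1b, 0.22 for per2 and 0.37 for per1a, at the 88.1, 86.6 and 83.6 percentile of genes within 0.5 log2 units of their mean level. For per1b and per1a the pooled value takes in groups with very few counts. At 1 somite the SD of log2 CPM was 0.489 in wild type and 0.382 in mutants for per1b, and 0.570 and 0.603 for per1a. Their percentiles are therefore not read as a wide spread at the later stages. For cry1aa (0.13) and cry1ba (0.13) it was at the 38.4 and 44.3 percentile. After the mean of each stage was taken away, per1b and per3 had a Pearson correlation of 0.823 over the 36 libraries, per1b and cry1ab 0.778 and per2 and cry1aa 0.771. In contrast per1b and cry1bb had -0.01 and per1a and cry1ba 0.07. These libraries share genotype and depth differences within a stage, and the correlations are descriptions.

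Of 12930 other genes with a mean of at least 5 CPM, the gene whose log2 CPM over the 36 libraries, with stage means taken away, was most like per1b was per3 itself, ahead of acta1b (0.816) and krt15 (0.799). For cry1ab it was polr3glb (0.807), followed by the clock output gene nfil3-2 (0.805) and by hsd17b10 (0.80). For per2 it was cpsf1 (0.852), followed by nfrkb (0.842) and kdm4ab (0.84), and for per3 celsr1b (0.892), nav1b (0.88) and ptpra (0.851). For cry1aa it was rabggta (0.834), gsk3ab (0.831) and fam222a (0.826), and for per1a stk35 (0.783), klf13 (0.776) and ulk2 (0.758). The values were lower for cry1ba, led by rcvrn3 (0.743), mxd4 (0.736) and cfd (0.732), and lowest for cry1bb, led by mipa (0.671), rgs3b (0.618) and elmo2 (0.616). Over the 12 group means the most like genes were papss2a for per1a (0.993), isoc2 for per1b (0.987), lrit1b for per2 (0.97), serpinb1 for per3 (0.987), slc13a5a for cry1aa (0.988), slc22a6l for cry1ab (0.98), spsb3a for cry1ba (0.903) and histh1l for cry1bb (0.931).

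Estimated counts per transcript were available for the members too. per1b, per3, cry1aa and cry1ab each had 1 matched reference transcript that held 99.2% or more of the gene's value in every library with enough counts. In such libraries the 3 matched transcripts of per1a held 40.7% to 104.3%, the 2 of per2 64.3% to 101.2% and the 2 of cry1bb 5.59% to 67.5%. Most of the cry1bb value was therefore on no matched transcript in some libraries. cry1ba had 2 matched transcripts, a curated one and a predicted one, which held 30.1% to 95.6% of the gene's value. At 9 day they held 52.7% to 95.6% in wild type but 35.4% to 36.2% in mutants, and at 14 day 45.02% to 87.2% and 30.1% to 33.7%, so the total that the shares below refer to differed between genotypes. The curated one made up 35.8% ± 15.7 of these 2 in wild type and 87.4% ± 3.03 in mutants at 9 day (SD, n = 3), and 45.6% ± 19.5 and 94.5% ± 4.61 at 14 day. At 1 somite the shares were alike, 83.0% ± 14.8 and 81.8% ± 19.9. For per2, also with a curated and a predicted transcript, the curated share was 23.3% ± 9.44 in wild type and 40.1% ± 4.38 in mutants at 9 day. Such shares rest on estimates that divide shared reads between transcripts, and no test was run on them.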

How the data were processed

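Estimated counts per gene and per transcript were deposited by the authors for 36 libraries. Per the submitters' processing notes, Trimmomatic 0.36, kallisto 0.43.0, edgeR and build GRCz10 were used, with no roles given, and TRIzol extraction and stranded polyA libraries are given per the labels' protocols. The authors' deposited normalized signal per gene listed 4 of the 8 members and was read only to check the count table.

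Estimated counts were rounded to whole numbers and tested in R 4.3.3 with edgeR 4.0.16 (filterByExpr, TMM, glmQLFit and glmQLFTest) and limma 3.58.1, with Benjamini-Hochberg adjustment over all genes tested. Each stage and each step was fitted on its 2 groups alone, and the averaged and interaction tests on all libraries. CPM values are scaled with TMM factors, and log2 CPM has a prior count of 2. The fits were checked on simulated counts. Alternatives were other size factors, no filter, DESeq2 1.42.0, a fit of all 36 libraries, a replicate block, and leaving out each replicate or stage; the mutant steps were added after seeing the data.

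The members and lists were chosen with earlier results of these data known. Named were all members, up to 5 called clock genes per stage by smallest p, clocka, clockb, arntl1a, arntl1b and nr1d1 throughout, and the 3 genes most like each member; values of cry5, zgc:66475 and others beyond this rule were named after they were seen. fbxl3l, fbxl21, btrc and ciartb were asked for and not matched.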

Additional observations from a re-analysis of the deposited data

Results flagged for a closer look

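The mutant minus wild-type difference varied between stages for each of the 8 genes by the genotype by stage test in edgeR. The adjusted p was 1.08e-05 for per1b, 1.42e-05 for per1a, 0.00122 for per2, 0.0021 for cry1ba, 0.00266 for cry1ab, 0.0128 for cry1aa, 0.0401 for cry1bb and 0.0439 for per3, when 25.5% of all genes passed. The calls of per1a, per1b, per2, cry1ab and cry1ba held in every alternative run, whereas those of per3, cry1aa and cry1bb were lost in some processing settings and when single stages were left out, with adjusted p of up to 0.163, 0.409 and 0.381.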

How the results depend on the processing

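At 1 somite, where 1 member was called, 2 were called with library totals in place of TMM factors, 2 with no filter on low counts, 3 in the fit of all 36 libraries, and 0 with DESeq2. At 9 day library totals left 1 of 2 called, and at 14 day the fit of all 36 libraries called 5 in place of 3. Library totals moved the median of all genes by -0.174 (log2) for mutant against wild type at 5 day.

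The labels do not say that replicate numbers pair the libraries. Over 5000 genes, with group means taken away, same-numbered libraries of a stage had correlations from -0.44 to 0.191. With 3 libraries a group these values cannot decide whether libraries were paired. With the replicate number as a block, 0 members were called at 1 somite, 1 at 2 day and 3 at 5 day, and per3 (adjusted p = 0.12) and cry1aa (0.0793) did not pass the genotype by stage test.

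With 1 library left out, the members called ranged from 0 to 1 at 1 somite, 0 to 2 at 2 day, 3 to 6 at 5 day, 1 to 2 at 9 day, and 3 to 4 for the wild-type step from 9 day to 14 day.

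Signs turned only for differences that were not called. per1a at 2 day (0.00) became -0.005 with RLE size factors, -0.006 with library totals, -0.017 with no filter and with DESeq2, -0.068 in the fit of all 36 libraries and -0.034 with the block, and ranged from -0.138 to 0.22 with 1 library left out. cry1bb at 1 somite became 0.054 with library totals (-0.151 to 0.139 with 1 library left out). per2 at 2 day became -0.012 in the fit of all 36 libraries (-0.012 to 0.185), and per1b at 9 day -0.001 with library totals (-0.026 to 0.103). cry1ba at 14 day ranged from -0.005 to 0.167. In wild type, per3 from 5 day to 9 day became -0.104 with library totals and -0.013 in the fit of all 36 libraries (-0.063 to 0.106), per3 from 9 day to 14 day became -0.078 with library totals, and per1a from 5 day to 9 day ranged from -0.273 to 0.045. In mutants from 25 hpf to 2 day, cry1aa became 0.006 with library totals, and cry1bb -0.022 in the fit of all 36 libraries (-0.017 to 0.106). The cause was not tested. Called in every alternative were per1b, per3, cry1aa and cry1ab at 25 hpf, per1b, per3 and cry1ab at 5 day, per2 at 9 day, and per1a, per2 and cry1ab at 14 day. Low counts limit per1a before 2 day and cry1ab at 1 somite.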
